A study of Mus musculus with 14 samples.

Results

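Integrins, laminins, syndecans and the proteins beside them in the basement membrane were followed from control lung through 3 sizes of c-Myc lung tumor. The genes were those whose only symbol in the platform annotation begins with Itga, Itgb, Lama, Lamb, Lamc, Sdc or Nid followed by a digit, or with Itga or Itgb followed by a letter, together with Cd44, Hspg2 and Agrn. This choice took 62 of the 12422 probe sets on the array, which carry 38 of its 8251 gene symbols. The rule used no measured value, though it was set with earlier results of these data known. One of the symbols, Itgb1bp1, was caught by its spelling and names a cytoplasmic protein that binds the tail of integrin beta 1, not an integrin chain.

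The RNA came from lung of 4 non-transgenic mice and from tumors of SPC/myc transgenic mice, namely 3 pools of small tumors of about 1 mm with 3 to 4 tumors in a pool, 4 middle-sized tumors of about 4 to 5 mm and 3 large tumors of over 10 mm. All animals were on the CD2F1-(DBA/2xBalb/C) background and 9 to 13 months old, and the transgenic line was kept hemizygous. In this line the promoter of surfactant protein C drives c-Myc in the alveolar epithelium, so papillary adenocarcinomas of epithelial origin are set against whole lung. Each array holds tissue of 1 animal, which for the small tumors is 1 pool of tumors from that animal. Every tumor size was compared with the same 4 control lungs.

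Integrins are receptors made of an alpha and a beta chain that bind matrix or other cells outside and link to actin or keratin inside. Laminins are cross-shaped trimers of an alpha, a beta and a gamma chain that form the sheet of the basement membrane, which nidogens and the heparan sulfate proteoglycans perlecan and agrin tie to collagen IV. Syndecans are transmembrane heparan sulfate proteoglycans that act beside integrins, and CD44 is a receptor for hyaluronan. In lung, the basement membrane lies between the alveolar epithelium and the capillaries, with both sides contributing laminins to it.

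The signal is the linear brightness of a probe set after scaling of the whole array, and signals were taken as log2 with values below 70 set to 70. Of the 38 genes, 27 had a probe set at 70 or above on at least 3 arrays and were tested. Against control lung, 4 of the 27 (14.8%) were higher in tumors of all sizes combined at an adjusted p under 0.05, where 23.6% of all 6914 probe sets tested were higher. In the other direction 12 of the 27 (44.4%) were lower, where 21.0% of all probe sets were. The genes that rose were Cd44, Sdc1, Itga7 and Lama5, and those that fell were Lama2, Lama3, Lama4, Lamb1, Itga3, Itga8, Itgb2, Itgb7, Itgal, Sdc2, Hspg2 and Agrn. The median log2 fold change of the 27 was -0.41, beside 0.04 over all probe sets tested. Itga8 passed the limit of 70 in control lung alone, and without it 11 of 26 genes were lower. The other 11 tested genes were not called.

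Signals that did not overlap were counted as well. Every tumor lay above every control lung for 2 of the 27 genes, Sdc1 and Lama5, where 10.2% of all probe sets did. Every tumor lay below every control lung for 6, namely Lama2, Lama3, Lama4, Itga3, Itga8 and Itgb7, as for 12.2% of all probe sets. When each array was scaled to the same median instead, the median log2 fold change of all probe sets moved from 0.04 to 0.15, and 2097 probe sets were higher and 1199 lower in place of 1631 and 1452. Under that scaling the same 4 genes remained higher and 10 of the 12 remained lower, with Agrn and Hspg2 no longer called.

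**Figure D1:**
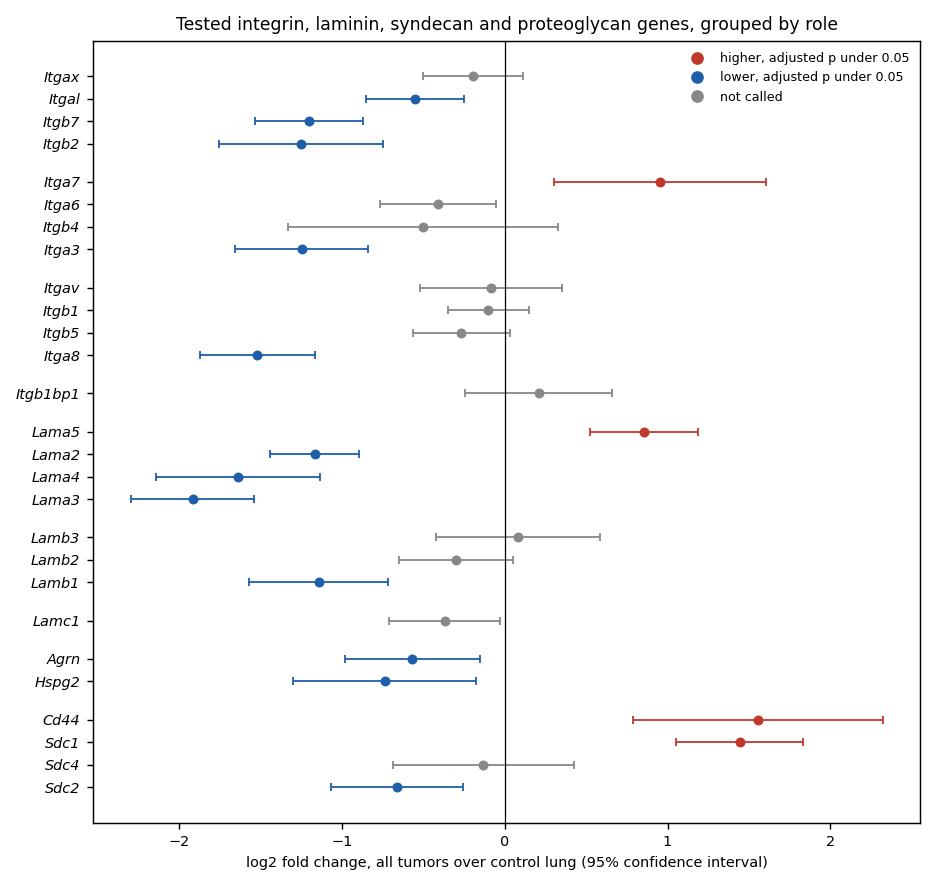
Log2 fold change of each of the 27 tested genes in all tumors over control lung, from the limma fit, with its 95% confidence interval as a bar and the genes grouped by role from leukocyte integrin chains at the top to syndecans and Cd44 at the bottom. Red points are the 4 genes that were higher, blue points the 12 that were lower and grey points the 11 that were not called, of which Itgav, Itgb1 and Sdc4 changed sign when the arrays were scaled to 1 median.

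The arrays were checked before the genes were read. Myc, the gene that the transgene carries, had signals of 24.1 to 35.6 in control lung and of 325 to 2165 in the tumors. Whether its probe set reads the transgene, the mouse's own gene or both was not tested. On 13 arrays between 6796 and 7575 probe sets reached 70, while on the array of middle-sized tumor 3 only 5630 did, and 3125 of its values (25.2%) were listed at or next to 0. These were treated as missing, which removed 12 of the 62 probe sets from that array, among them those used for Itga7, Lamb1 and Lamc1. In the tumors 14 of 15 tested endothelial marker genes, 5 of 5 alveolar type I genes and 10 of 10 smooth muscle genes were lower. So were 7 of 9 pan-leukocyte genes, where 21.0% of all probe sets tested were lower. Higher were 5 of 10 epithelial genes and 2 of 6 alveolar type II genes, beside 23.6% of all probe sets tested. Some lower markers passed the limit of 70 through control lung, such as Myh11 and Calcrl, with tumor means of 14.7 and 20.9. A gene that passed in this way could only be called lower. In whole tissue, fewer cells of a type and less RNA of it per cell cannot be told apart.

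The sequence before the transcription start was set beside the changes for genes that moved the same way. RefSeq promoters of build GRCm38.p6 were found for 25 of the 38 genes, 28 promoters in all. Of the genes called in all tumors, 10 had a promoter, and Lama3, Lama4, Itgb2, Itgal, Sdc2 and Itga7 had none. The 250 bases upstream of the start were searched on both strands. As examples, 2 promoters of genes that rose and 2 of genes that fell are shown, so that the letters searched for can be seen in place. Capitals mark the GC box (GGGCGG or its reverse CCGCCC, runs of overlapping boxes included) and the CCAAT box (CCAAT or its reverse ATTGG). Sdc1 lies on the plus strand at chr12:8771146-8771395, Lama5 on the minus strand at chr2:180225860-180226109, Lamb1 on the plus strand at chr12:31265043-31265292 and Itga8 on the minus strand at chr2:12301945-12302194.
Sdc1: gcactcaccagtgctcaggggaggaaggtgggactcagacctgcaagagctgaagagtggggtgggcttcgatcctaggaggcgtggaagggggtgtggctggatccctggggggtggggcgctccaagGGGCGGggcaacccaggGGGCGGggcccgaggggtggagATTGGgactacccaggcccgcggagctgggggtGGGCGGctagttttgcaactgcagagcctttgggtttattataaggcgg
Lama5: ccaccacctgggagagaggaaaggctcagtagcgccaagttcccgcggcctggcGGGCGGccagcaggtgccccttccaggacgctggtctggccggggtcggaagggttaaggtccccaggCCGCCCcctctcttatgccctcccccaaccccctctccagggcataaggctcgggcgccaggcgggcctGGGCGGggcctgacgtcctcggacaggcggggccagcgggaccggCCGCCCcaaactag
Lamb1: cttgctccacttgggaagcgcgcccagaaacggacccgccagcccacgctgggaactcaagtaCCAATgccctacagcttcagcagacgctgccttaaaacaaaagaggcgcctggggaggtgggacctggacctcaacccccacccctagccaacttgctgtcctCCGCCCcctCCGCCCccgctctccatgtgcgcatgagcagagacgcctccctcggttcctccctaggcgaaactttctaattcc
Itga8: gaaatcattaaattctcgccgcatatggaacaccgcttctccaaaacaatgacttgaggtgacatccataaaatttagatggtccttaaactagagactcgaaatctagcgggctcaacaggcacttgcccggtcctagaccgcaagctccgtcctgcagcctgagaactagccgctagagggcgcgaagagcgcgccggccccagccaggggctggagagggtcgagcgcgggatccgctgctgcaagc
The Sdc1 stretch held 3 GC boxes and 1 CCAAT box, that of Lama5 4 GC boxes, that of Lamb1 2 GC boxes and 1 CCAAT box, and that of Itga8 none of either. These 4 do not stand for their directions. A GC box was found in 2 of 3 promoters of genes that rose, with none in that of Cd44. Of the promoters of genes that fell, 6 of 9 had one, with 5 in that of Hspg2. The 9 include 2 promoters each of Agrn and Itga3, all with a GC box. Over all members a GC box was found in 16 of the 28 promoters, a larger share than the 32.7% of all 32851 promoters. A CCAAT box was found in 5 of the 28, a smaller share than the 33.8% of all. The E-box CACGTG, the sequence that Myc binds with Max, was found in 0 of 28 and in 6.02% of all promoters, and the related CGCGTG or CACGCG in 1 of 28 and 7.62% of all. The share of G and C had a median of 61.0% in the 28 and of 52.4% in all. A match of letters is a description and not a binding site, and its absence covers these 250 bases alone.

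Among the laminin alpha chains, Lama3, Lama4 and Lama2 fell in tumors of every size and Lama5 rose in tumors of every size. Lama3 encodes the alpha 3 chain of the laminins that anchor epithelial cells at hemidesmosomes. Its signals in the 4 control lungs were 273, 227, 394 and 348. They were 77.6, 115 and 70.4 in the small tumor pools, 87.1, 24.7, 106 and 41.6 in the middle-sized tumors and 81.2, 47.7 and 51.6 in the large tumors. The highest tumor was thus below the lowest control lung, and 4 tumors were under 70. Over all tumors the log2 fold change was -1.92 (SE 0.18, adjusted p = 9.3e-07), the lowest value among the 27 genes on this scale cut off at 70, on which Itga8 has a bound alone, and the 3 sizes gave -1.82, -1.89 and -2.05 from small to large.

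Lama4, the alpha 4 chain of endothelial and mesenchymal basement membranes, was measured at 367, 401, 423 and 393 in control lung. Tumor signals were 118, 150.3 and 123 in small pools, 207, 139, 79.0 and 94.5 in middle-sized tumors and 170.4, 87.0 and 150.4 in large tumors. The groups did not overlap, and the control lungs differed little among themselves (396 ± 23.1, SD, n = 4). On the log2 scale the difference was -1.64 (SE 0.23, adjusted p = 6.2e-05). Lama2, the alpha 2 chain of muscle and mesenchymal basement membranes, had signals of 164, 161, 137 and 205 in control lung. In the tumors they were 68.4, 62.7 and 37.1 in small pools, 106, 56.0, 81.9 and 39.7 in middle-sized tumors and 47.0, 65.9 and 16.4 in large tumors. All tumors were below all control lungs, and 8 of the 10 were under 70, where the log2 scale was cut off. The log2 fold change of -1.17 (SE 0.13, adjusted p = 4.5e-06) is therefore understated.

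Lama5, the alpha 5 chain of the laminins under mature epithelium and vessels, was the laminin gene that moved upward. The control lungs had signals of 379, 400.0, 346 and 349, with a mean of 369 ± 25.6 (SD, n = 4). The small pools had 608, 593 and 539.9, the middle-sized tumors 774, 550.1, 1014 and 628 and the large tumors 593, 641 and 928. The lowest tumor was above the highest control lung, and the log2 fold change was 0.86 (SE 0.16, adjusted p = 4.7e-04). By size it was 0.65, 0.97 and 0.94 from small to large, each with an adjusted p under 0.05. The second probe set of Lama5, at lower signal, gave 0.48 (SE 0.17, adjusted p = 0.072), which did not pass the test. Lama1, the alpha 1 chain of embryonic basement membranes, stayed under 45 on all arrays and was not tested.

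**Figure D2:**
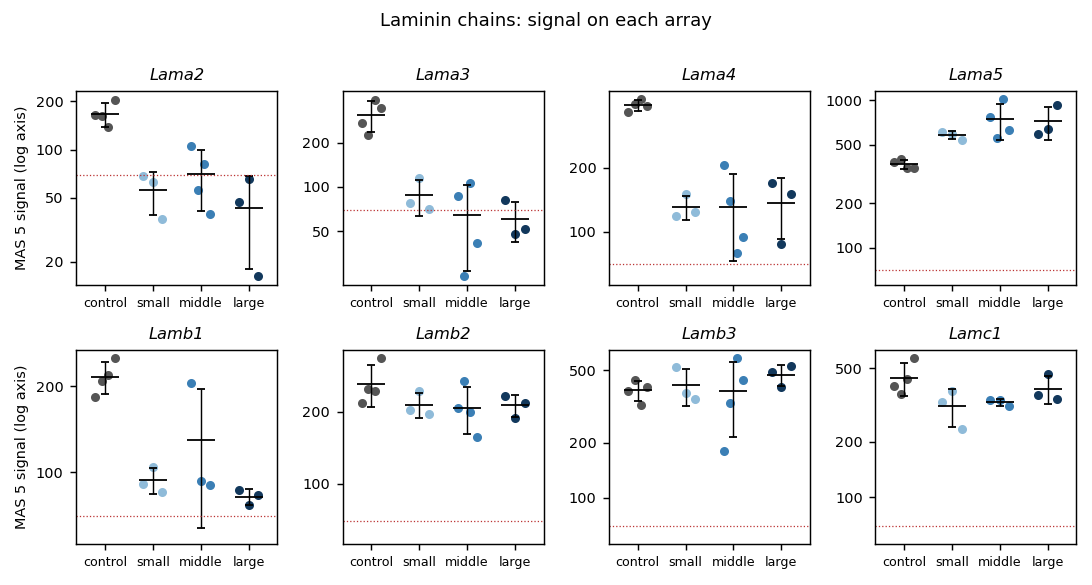
Signal of the 8 tested laminin chains on each array (log axis), with control lung in grey and small, middle-sized and large tumors in increasingly dark blue. Points are arrays, horizontal marks the group mean, bars the SD and the dotted line the signal of 70. For Lama2, Lama3 and Lama4 the tumors lie below all control lungs and for Lama5 above them, while Lamb2, Lamb3 and Lamc1 overlap between groups.

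Of the beta and gamma chains, Lamb1 fell, and Lamb2, Lamb3 and Lamc1 were not called. Lamb1, the beta 1 chain shared by most laminins outside the epithelial anchoring type, had signals of 184, 208, 219 and 251 in control lung. They were 91.1, 104 and 85.4 in small pools, 205, 93.0 and 89.8 in the middle-sized tumors that had a value and 86.3, 76.3 and 82.7 in large tumors. Of the 9 tumors, 8 were below all control lungs, and middle-sized tumor 1, at 205, lay within their range. Its log2 fold change was -1.14 (SE 0.20, adjusted p = 4.0e-04), and the second probe set gave -1.11 (SE 0.18, adjusted p = 8.9e-04). Lamb3, the beta chain that pairs with alpha 3 in the epithelial anchoring laminin, gave a log2 fold change of 0.08 with a 95% interval from -0.43 to 0.58. Its tumor signals ran from 182 to 582 with a median of 421, on both sides of the 324 to 440.1 of control lung. Lamb2 gave -0.30 (interval -0.65 to 0.05) and Lamc1, the gamma chain common to most laminins, -0.37 (interval -0.71 to -0.03, adjusted p = 0.074). The second probe set of Lamc1 was dim, at 11.2 to 45.8 in control lung and 9.93 to 38.6 in the tumors.

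The nidogens were too dim to be tested. Nid1, which links laminin to collagen IV, had signals of 54.7 to 65.8 in control lung and 22.4 to 33.5 in the tumors, and Nid2 had 26.2 to 36.8 and 9.87 to 40.8. Both basement membrane proteoglycans were lower. Hspg2, which encodes perlecan, had a mean of 298 ± 63.8 (SD, n = 4) in control lung, and among the tumors the mean was lowest in the middle-sized group, with signals of 101, 119, 73.3 and 261. Over all tumors the log2 fold change was -0.74 (SE 0.26, adjusted p = 0.033), with -0.60, -1.25 and -0.37 in small, middle-sized and large tumors, of which the middle value passed the test. Agrn, which encodes agrin, had a mean of 1122 ± 96.0 (SD, n = 4) in control lung against 782 ± 216 (SD, n = 10) in tumors. Of the 10 tumors, 9 were below all control lungs, and the log2 fold change was -0.57 (SE 0.19, adjusted p = 0.027). Hspg2 lost its call in 10 of 27 alternative settings and Agrn in 6, among them the omission of single control lungs.

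Markers of several other cell types were lower beside the laminin chains that fell. For endothelium the summed signal, over the marker genes with a value on every array, was 22240 to 27830 in control lung and 2148 to 3880 in the tumors. For smooth muscle the sums were 6666 to 8070 and 2044 to 2885, and for fibroblasts 11190 to 13830 and 1867 to 5210. The fibroblast markers were divided, with 6 of 9 lower. Col1a1 (-0.25), Col1a2 (0.35) and Col3a1 (-0.46) were not called. Cardiac muscle markers, of which 8 of 9 were lower, had sums of 4307 to 7585 and 388 to 615. Alveolar type I markers had sums of 10680 to 16240 in control lung and 3354 to 6388 in the tumors. The part of these shifts in the laminin signals was not tested.

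Of the integrin chains that bind laminin or sit in epithelium, Itga3 fell, Itga7 rose and Itga6 and Itgb4 were not called. Itga3, the alpha 3 chain that pairs with beta 1 as a laminin receptor of epithelium, had signals of 589, 509, 455 and 492 in control lung. They were 187, 188 and 228 in small pools, 214, 144, 279.5 and 185 in middle-sized tumors and 213, 195 and 363 in large tumors. No tumor reached the lowest control lung, and large tumor 3 came nearest. Over all tumors the log2 fold change was -1.25 (SE 0.19, adjusted p = 1.1e-04), and the second probe set gave -1.10 (SE 0.18, adjusted p = 9.5e-04). By size the values were -1.35, -1.35 and -1.04.

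Itga6 and Itgb4 form the receptor of hemidesmosomes, the rivets that join keratin filaments to laminin. The control mean of Itga6 was 281 ± 64.3 (SD, n = 4) and the tumor mean 208 ± 29.6 (SD, n = 10), with a log2 fold change of -0.41 (SE 0.17, adjusted p = 0.057). It was called lower in 6 of 27 alternative settings, and without control lung 4, the lowest of the 4 for this gene, it was -0.57 with an adjusted p of 0.012. Itgb4 signals were 181, 257, 146 and 119.8 in control lung. The small pools had 82.6, 53.5 and 46.0, all below control lung. Middle-sized tumors had 216, 92.0, 51.1 and 271 and large tumors 38.7, 235 and 269, so that these 2 sizes held both the lowest and the highest signals of the gene. Its log2 fold change in all tumors was -0.50 with an interval from -1.33 to 0.33. Only 6 of the 10 tumors reached 70, and the others were set to 70 for this value and for the spread. The tumors of 1 size spread around their mean by an SD of 0.84 on the log2 scale for Itgb4, where the median over all probe sets tested was 0.28. Itga2, the alpha 2 chain of the epithelial collagen receptor, was above 70 on fewer than 3 arrays, with signals of 13.2 to 229 in tumors and of 31.7 to 58.5 in control lung.

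Itga7, the alpha 7 laminin receptor chain known best from muscle, had signals of 161, 148, 180.4 and 270 in control lung. In the tumors with a value the small pools had 415, 289.8 and 439, the middle-sized tumors 654, 358 and 186 and the large tumors 402, 469 and 219. Of the 9 tumors, 7 were above all control lungs, and middle-sized tumor 4 and large tumor 3 lay within the range set by control lung 4. Its log2 fold change was 0.95 (SE 0.30, adjusted p = 0.020), but no single size passed the test, with values of 1.02, 0.93 and 0.90. A second probe set gave 0.78 (SE 0.26, adjusted p = 0.047) in the fit over all probe sets, in which the first had an adjusted p of 0.063, and the remaining one stayed under 13 on all arrays. The call was lost in 5 of 27 settings, 3 of them the omission of control lung 1, 2 or 3.

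Of the widely expressed chains, Itgb1, Itgav and Itgb5 were not called and Itga8 fell. Itga8, the alpha 8 chain of mesenchymal cells such as alveolar fibroblasts and smooth muscle, pairs with beta 1 to bind nephronectin. Its signals were 149.5, 152, 325 and 220.5 in control lung. They were 20.7, 29.0 and 35.5 in small pools, 23.3, 18.2, 8.18 and 10.4 in middle-sized tumors and 19.2, 30.6 and 22.7 in large tumors. All 10 tumors were far below 70, so the size of the fall has a bound alone. Control lung was at least 2.87-fold higher, taking the tumors at 70. Itga8 passed the limit of 70 in control lung alone, and its tumors were all set to 70. Its adjusted p is therefore no support and is left out. Itgb1, the beta chain shared by most matrix integrins, was bright everywhere. Its control mean was 3503 ± 540.3 (SD, n = 4) and its tumor mean 3234 ± 294 (SD, n = 10), with a log2 fold change of -0.10 (interval -0.35 to 0.15). Its second probe set gave -0.46 (SE 0.10, adjusted p = 0.0045), so the 2 probe sets of Itgb1 disagreed on the call. Itgav gave -0.08 (interval -0.52 to 0.35) and Itgb5 -0.27 (interval -0.56 to 0.03). Itga5, the alpha chain of the fibronectin receptor, and Itgb3 were below 43 on all arrays.

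The fall of Itga8 stood beside those of the fibroblast and smooth muscle markers given above. Of these, 6 of 9 and 10 of 10 tested were lower, beside 21.0% of all probe sets tested. Their part in the fall of Itga8 was not tested. Nephronectin (Npnt), the ligand of the alpha 8 chain, fell by 2.19 on the log2 scale, from a mean of 1456 ± 266 (SD, n = 4) to one of 381 ± 226 (SD, n = 10), with an adjusted p of 0.0015.

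**Figure D3:**
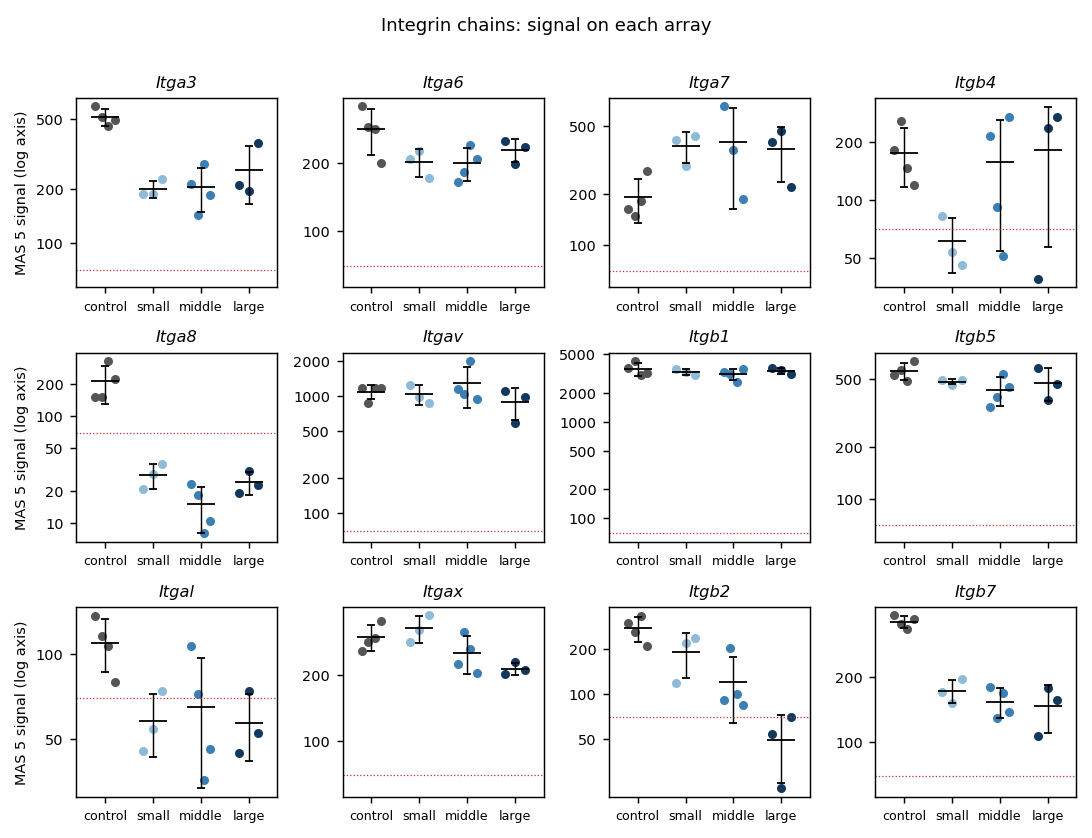
Signal of 12 tested integrin chains on each array (log axis), the laminin-binding and epithelial chains in the top row, widely expressed and mesenchymal chains in the middle row and leukocyte chains in the bottom row. Points are arrays, horizontal marks the group mean, bars the SD and the dotted line the signal of 70. Itga3, Itga8 and Itgb7 do not overlap between control lung and tumors, Itgb4 is spread widely in middle-sized and large tumors, and Itgb2 has its lowest signals in the large tumors.

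Of 4 tested integrin chains of leukocytes, Itgb2, Itgb7 and Itgal fell and Itgax was not called. Itgb2, the beta 2 chain that leukocytes use to bind ICAMs, had signals of 294, 257, 329.8 and 209 in control lung. The small pools had 118, 218 and 233, the middle-sized tumors 91.8, 202, 100.3 and 84.4 and the large tumors 54.4, 23.8 and 70.2. The small pools thus overlapped control lung, while all middle-sized and large tumors lay below it. Over all tumors the log2 fold change was -1.25 (SE 0.24, adjusted p = 6.0e-04), with -0.56 in small tumors, which did not pass the test (adjusted p = 0.17), -1.26 in the middle-sized (adjusted p = 0.0034) and -1.94 in the large ones (adjusted p = 1.9e-04). Between the sizes themselves, large tumors were lower than small ones by a log2 difference of -1.38 (interval -2.07 to -0.68, adjusted p = 0.19), which was not called after adjustment over all probe sets. Of the 3 large tumors 2 were under 70, so both the fall in large tumors and this difference are understated.

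Itgb7, the beta chain of the homing receptor of lymphocytes, had signals of 384, 348, 330 and 368 in control lung. Small pools gave 171, 152 and 194, the middle-sized tumors 178, 129, 168 and 138 and the large tumors 107, 177 and 156. The groups did not overlap, and the log2 fold change was -1.20 (SE 0.16, adjusted p = 2.5e-05). Itgal, the alpha chain that pairs with beta 2 as LFA-1, had a control mean of 110.0 ± 23.8 (SD, n = 4) and a tumor mean of 60.5 ± 21.3 (SD, n = 10), and 9 of 10 tumors were below all control lungs (log2 fold change -0.55, SE 0.14, adjusted p = 0.0050). Itgax, the CD11c chain of alveolar macrophages and dendritic cells, averaged 297 ± 40.0 (SD, n = 4) in control lung beside 262 ± 58.9 (SD, n = 10) in tumors, with a log2 fold change of -0.19 (interval -0.50 to 0.11). Itga4, Itgae, Itgam and Itgb2l were not tested. Of these, Itgam, the CD11b chain of neutrophils and monocytes, had signals of 42.5 to 102 in control lung and 5.29 to 29.4 in the tumors, which did not overlap. Itga4 had 40.2 to 54.5 and 12.5 to 29.9, also without overlap but below 70 throughout.

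The summed signal of pan-leukocyte markers was 2659 to 5255 in control lung and 1851 to 3221 in the tumors, with 7 of 9 lower and none higher. That of macrophage markers was 3222 to 4424 and 2739 to 3821, with 2 of 7 lower, and that of lymphocyte and NK cell markers 567 to 796 and 170.5 to 417, with 2 of 5 lower. For neutrophil and mast cell markers the sums were 1782 to 5164 and 228.5 to 3397, with 5 of 7 lower. Their part in the leukocyte integrin signals was not tested. Beside these counts, 21.0% of all probe sets tested were lower. None of the 4 platelet markers on the array reached 70 on 3 arrays, nor did Itgb3, the beta 3 chain of platelets.

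The syndecans and Cd44 held both of the largest rises among the 27 genes. Sdc1, the syndecan of epithelial cells and plasma cells, had signals of 214, 182, 204 and 197 in control lung. The small pools had 542, 476 and 576, the middle-sized tumors 389, 709.5, 652 and 552 and the large tumors 727, 357 and 579.5. All tumors were above all control lungs, and the mean went from 199 ± 13.5 (SD, n = 4) to 556 ± 123 (SD, n = 10). Its log2 fold change was 1.44 (SE 0.18, adjusted p = 2.1e-05), with 1.41, 1.50 and 1.42 from small to large tumors. The second probe set of Sdc1 gave 0.73 (SE 0.15, adjusted p = 0.0053).

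Cd44 had signals of 129.5, 123, 108 and 113 in control lung. The small pools had 336, 459 and 753, the middle-sized tumors 233, 619, 318 and 125 and the large tumors 549.8, 295 and 181. Of the 10 tumors, 9 were above all control lungs, and middle-sized tumor 4 lay within their range. The log2 fold change was 1.55 (SE 0.36, adjusted p = 0.0028), and its interval, from 0.79 to 2.32, was wide, and single tumors differed by up to 6.04-fold. By size it was 2.05, 1.22 and 1.39. The other 2 probe sets of Cd44 were under 70 on all arrays.

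Of the remaining syndecans, Sdc2 fell and Sdc4 was not called. Sdc2, the syndecan of mesenchymal and endothelial cells, fell from a mean of 379 ± 70.7 (SD, n = 4) to one of 239 ± 51.0 (SD, n = 10), and 9 of 10 tumors were below all control lungs (log2 fold change -0.66, SE 0.19, adjusted p = 0.011). Sdc4, the syndecan of focal adhesions, had signals of 286, 329, 226 and 347 in control lung. Small pools gave 291, 178 and 176, the middle-sized tumors 476, 197, 458 and 228 and the large tumors 282, 405 and 216. Tumors lay on both sides of control lung, and the log2 fold change was -0.13 with an interval from -0.69 to 0.42. Sdc3 was below 67 on all arrays and not tested.

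**Figure D4:**
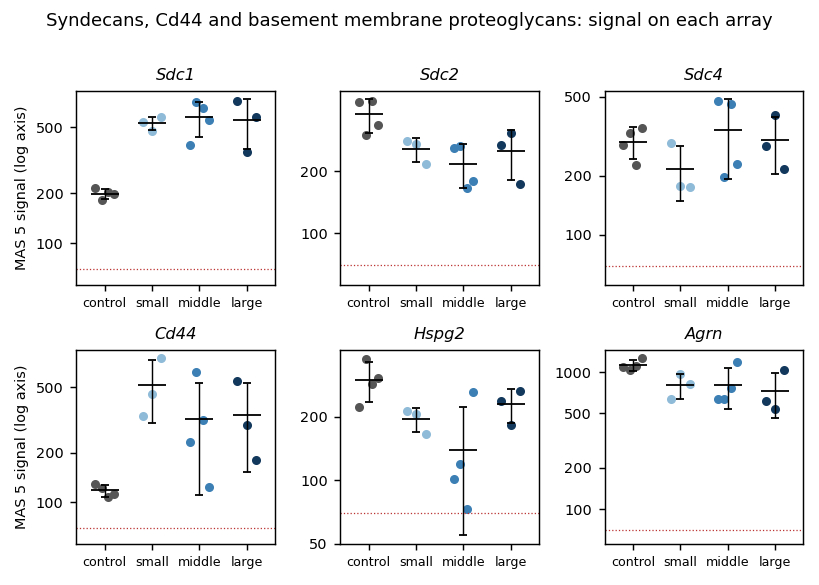
Signal of Sdc1, Sdc2, Sdc4, Cd44, Hspg2 and Agrn on each array (log axis) in control lung (grey) and in small, middle-sized and large tumors (blue, darker with size). Points are arrays, horizontal marks the group mean, bars the SD and the dotted line the signal of 70. For Sdc1 the tumors, at 357 to 727, lie above all control lungs, at 182 to 214, and Cd44 overlaps with control lung in 1 middle-sized tumor.

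The epithelial markers were divided beside the rises of Sdc1, Cd44 and Lama5. Their summed signal was 6220 to 8194 in control lung and 8846 to 15830 in the tumors. Of the 10 epithelial markers, Krt18, Epcam, Cldn3, Cldn7 and Krt8 were called higher, beside 23.6% of all probe sets tested. Not called were Cdh1 (-0.17), Krt19 (-0.21), Krt7 (-0.12), Dsp (0.27) and Cldn4 (0.51). The sum of alveolar type II markers, 17680 to 26110 and 18580 to 34900, overlapped between control lung and tumors. The part of these shifts in the rise of the receptors was not tested.

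Read by size, few calls separated the tumors. In small tumors 3 of the 27 genes were higher, where 19.9% of all probe sets were, and 8 were lower, where 16.7% were. In middle-sized tumors 3 were higher (all probe sets 15.8%) and 11 lower (all probe sets 16.4%). In large tumors 3 were higher (all probe sets 19.8%) and 10 lower (all probe sets 18.3%). The 3 higher were Cd44, Sdc1 and Lama5 in each size. Lama2, Lama3, Lama4, Lamb1, Itga3, Itga8, Itgal and Itgb7 were lower in each size, joined by Itgb2, Hspg2 and Sdc2 in middle-sized tumors and by Itgb2 and Agrn in large tumors. The sizes share their control lungs, so these lists are not independent of each other.

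Directly between sizes, limma called 0 of the 27 genes. For large against small tumors, 0.0289% of all probe sets were called, and for middle-sized against small and large against middle-sized 0% each. At an unadjusted p under 0.05 there were 3 genes for large against small tumors (Itgb2, Itgb4 and Itgax, beside 8.10% of all probe sets), 1 for middle-sized against small (Itgb2, beside 6.49%) and 2 for large against middle-sized (Hspg2 and Itgb2, beside 9.79%). The unpaired test named in the methods also called 0 in each pair after adjustment. The interval for Itgb4, higher in large than in small tumors by 1.15 on the log2 scale, ran from 0.01 to 2.29. Sizable differences between sizes thus remain possible at 3 or 4 arrays a group. Both sizes held Itgb4 signals under 70, which the log2 scale cut off.

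Genes with several probe sets allowed a check within the array. Suffixes such as _f, _s, _r and _g mark probe sets whose probes were designed with fewer constraints or match related transcripts, and the probe sets used for Itga7, Itgav, Itgb1, Lama3, Lamb1, Lamc1, Cd44 and Itgb1bp1 carry one. They were compared in an unfiltered fit of all 12422 probe sets. In it both probe sets of Itga3, Lamb1 and Sdc1 were called in the same direction. For Itga7 the second was called (adjusted p = 0.047) and the first, used above, was not (adjusted p = 0.063). For Lama5 the first was called (adjusted p = 0.0018) and the second was not. For Agrn neither was, with -0.57 (adjusted p = 0.067) and -0.39 (SE 0.15, adjusted p = 0.095). Besides Itgb1, a disagreement was seen for Itgb1bp1, whose 3 probe sets gave 0.21, 0.16 and -0.62, the last with an adjusted p of 0.047.

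**Figure D5:**
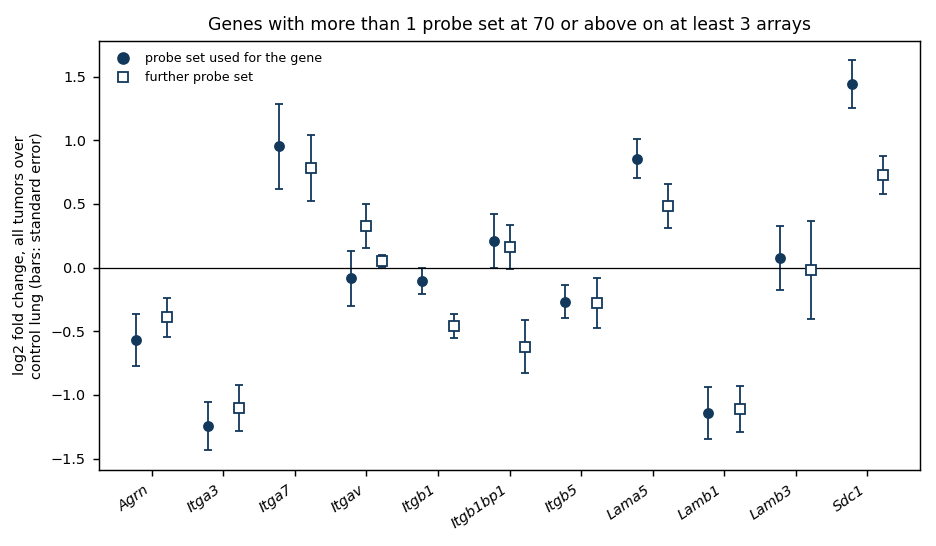
Log2 fold change in all tumors over control lung for each probe set of the genes that had more than 1 probe set at 70 or above on at least 3 arrays, from a fit over all 12422 probe sets, with the standard error as a bar. Filled circles are the probe sets used for the gene and open squares further ones, and the probe sets of Itga3 and of Lamb1 lie close together while those of Itgb1bp1 lie on both sides of 0.

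The proteins that work with these receptors were read from lists of their own. Of 24 tested genes of the integrin adhesion complex, which couples integrin tails to actin, 2 were higher and 12 lower, with a median log2 fold change of -0.41. The rises were Lpp (0.67, adjusted p = 9.3e-04) and Vasp (0.61, adjusted p = 0.0037), both proteins of actin-linked adhesions. The largest falls were those of the tensin Tns2, from 856 ± 337 (SD, n = 4) to 151 ± 28.6 (SD, n = 10) or -2.47 on the log2 scale, of the vinculin-binding adaptor Sorbs3 (-1.97) and of Fermt3 (-1.50), the kindlin of blood cells. The tumor mean of Sorbs3, 52.7, was under 70, so its fall is understated. Talin 1, paxillin, Src and both alpha-actinins of the list were not called, with log2 fold changes from -0.21 to 0.21.

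Of 12 partners of hemidesmosomes and tetraspanin webs, 2 were higher and 6 lower (all probe sets 23.6% and 21.0%). Their median was -0.81. Bsg, the glycoprotein basigin that binds beta 1 integrins, rose by 1.02 (adjusted p = 2.8e-04) and Cd63, a tetraspanin of late endosomes, by 0.72 (adjusted p = 2.4e-05). The leukocyte tetraspanins Cd53 (-1.56) and Cd37 (-1.29) fell, and so did Plec (-1.15, adjusted p = 1.6e-04), the plectin that ties keratins to alpha 6 beta 4 integrin. The tumor mean of Cd37, 60.4, was under 70, so its fall is understated.

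Of 17 other ligands of integrins, 0 were higher and 12 lower (all probe sets 23.6% and 21.0%), with a median of -1.12. Icam2, an endothelial ligand of leukocyte integrins, went from 1213 ± 140.5 (SD, n = 4) to 53.7 ± 39.8 (SD, n = 10), Vwf, the endothelial clotting factor, from 2008 ± 377 to 213 ± 83.9, and Npnt fell as given above. Of 12 genes for collagen IV and other basement membrane parts, 1 was higher and 7 lower, with a median of -0.58. The rise was that of Col15a1, a collagen of the outer basement membrane zone, by 1.68 (adjusted p = 4.7e-04), and the largest falls were those of the netrin Ntn1 (-1.87) and the fibulins Fbln1 (-1.78) and Fbln2 (-1.54).

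Of 7 tested genes for other laminin receptors and for proteins joined to them, 1 was higher and 4 lower, with a median of -0.30. The gene that rose, Rpsa (1.38, adjusted p = 2.1e-05), encodes a protein of the small ribosomal subunit that is also described as a laminin receptor. Sgce, a sarcoglycan, fell by 2.92 on the log2 scale, Utrn, which links dystroglycan to actin, by 1.50, and Mcam, a receptor of vessels and smooth muscle, by 1.37, while Dag1, which encodes dystroglycan itself, gave 0.06. Of 15 genes of heparan sulfate synthesis, shedding and glypicans, with the hyaluronan genes, 0 were higher and 6 lower, with a median of -0.31. The largest falls were those of Lyve1 (-3.69), the hyaluronan receptor of lymphatic vessels, Hs3st1 (-1.54), a sulfotransferase, and Mmp9 (-1.07), a protease. The tumor means of Lyve1 (61.7) and Mmp9 (26.3) were under 70, so their falls are understated. Sdcbp, which encodes the syndecan-binding protein syntenin, gave -0.10.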

How the data were processed

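RNA of 14 samples was hybridised to Affymetrix Murine Genome U74v2 arrays. The deposited values are MAS 5 signals, linear intensities that the authors scaled per array to a common target in GCOS. Detection and change calls were not used here. The table had 12488 probe sets, of which 66 were controls and dropped. Of the rest, 10833 had 1 gene symbol in the platform annotation, 396 several and 1193 none. Values below 1e-06, found on 1 array, were set to missing. Signals under 70, the study's threshold of expression, were raised to 70 and put on the log2 scale. Probe sets at 70 or above on at least 3 arrays were kept, with the one of highest mean for each symbol, which left 6914. The 4 groups entered 1 linear model (limma 3.58.1 under R 4.3.3, spread moderated along signal, no replicate block), and p-values were adjusted by Benjamini-Hochberg over all 6914. All tumors against control lung is the mean of the 3 sizes. Second and later probe sets were read from an unfiltered fit of the 12422. The fit was tested on simulated data. No array repeated another, since at most 0.00805% of values were identical in any pair. Precision is limited by how few arrays there are. Genes were given array by array if called with a log2 fold change of 1 or more, together with Cd44, Sdc1, Sdc4 and Itga8, and Lama5, Itga7, Itgb4 and the middle-sized tumors for Hspg2 were added after their values were seen. Of each further list, up to 3 rises and 3 falls among the called genes were named, and others given as not called were picked after their values were seen. Members and lists were chosen with earlier results of these data known. The alternatives were other floors, scalings, filters, spreads, the methods' unpaired test and the omission of each array.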

Additional observations from a re-analysis of the deposited data

Results flagged for a closer look

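In control lung and in middle-sized tumors, the groups with 4 arrays, 51 sets of 4 signals of the tested genes were searched for 1 array far from the others, and chance alone gives about 1 in 20. In control lung, Itgav was lowest in replicate 2, at 880.4, where the other 3 lungs had 1162 to 1171. In the middle-sized tumors, Itgb2 was highest in replicate 2, at 202, where the other 3 tumors had 84.4 to 100.3.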

How the results depend on the processing

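Over 27 alternative settings, 13 of the 16 genes called in all tumors kept their call wherever they were tested. Itga8 is among the 13, though it passed the limit of 70 in control lung alone. Hspg2 lost it in 10, Agrn in 6 and Itga7 in 5, and the omission of control lungs was among these settings for each. Itga8 and Lama2 could not be tested with a limit of 70 on at least 7 arrays. With array weights, 14 members were lower in small tumors in place of 8, and with the methods' unpaired test 7 were lower in middle-sized tumors in place of 11. With arrays scaled to 1 median, the log2 fold changes of Itgav, Itgb1 and Sdc4 turned to 0.0502, 0.0334 and 0.0021. Leaving out 1 array at a time gave Itgav -0.1855 to 0.0072, turned without large tumor 2, and Lamb3 -0.0056 to 0.1847, turned without control lung 3 (-0.0056) or middle-sized tumor 3 (-0.0019). Replicate numbers were not used as pairs. Same-numbered arrays deviated from their group means with r from -0.21 to 0.14 over 19 pairs, 1 of them over 0.1. Differently numbered arrays were not compared, so these values cannot show that the samples were unpaired. With the replicate block, 4 members were higher and 11 lower in all tumors, and Hspg2 was the one lost. The causes were not tested. Signals below 70 on an array limit what is known of Itga8, Lama2, Lama3, Itgal and, in large tumors, Itgb2, whose falls are understated. Itgb4 also had tumor signals below 70, which limits its fold changes and its spread.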
